A study of Mus musculus with 2 samples.

Results

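The cells described here are retinal endothelial cells in G2/M, the stretch of the cell cycle from the end of DNA replication to the end of division. They were chosen from 2 single-cell libraries by their own transcripts. A barcode was retained with at least 1000 unique molecular identifiers (UMIs, each counting a single captured molecule), at least 500 genes and 1 to 10% mitochondrial UMIs. It counted as endothelial when Pecam1, Cdh5, Cldn5, Kdr, Flt1, Egfl7, Esam and Ramp2 together reached 2000 CPM, that is UMIs scaled to 1000000 UMIs of that cell, and the mural genes Rgs5, Kcnj8, Pdgfrb and Higd1b together stayed under 1000 CPM. Of these, cells with at least 200 CPM of Mki67 plus Top2a were called cycling, and cycling cells with at least 400 CPM of Ube2c, Ccnb1 and Cdc20 together were called G2/M. The rule kept 229 cells of 14047 barcodes, 40 in the control library and 189 in the Alk1 ECKO library.

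The study profiled retinas of postnatal day 6 mice after dissociation and enrichment with CD31 beads, CD31 being the product of Pecam1. The control library had the genotype Alk1f/f, with floxed alleles of Alk1 and no Cre. The Alk1 ECKO library had the genotype Alk1f/f Cdh5 CreERT2, in which a tamoxifen-dependent recombinase is driven by the promoter of the endothelial cadherin gene Cdh5, so that loss of Alk1 is directed to endothelial cells. Both groups therefore carry the floxed alleles, and only the Alk1 ECKO group carries Cre. There was 1 library per genotype, and how many animals went into each, how tamoxifen was given and which exons were removed is not given in the sources used here. Cells of a library are not replicates of a genotype. Values are given with exact intervals that cover counting error only, no test of genotype was possible, and a genotype difference and a difference between libraries cannot be told apart.

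A dividing cell doubles its DNA in S phase and then, in G2, builds up the transcripts of mitosis. Cyclin B bound to the kinase CDK1 starts mitosis, kinetochores and the spindle checkpoint hold chromosome separation until every chromosome is attached, and the anaphase-promoting complex (APC/C), a ubiquitin ligase, then destroys cyclin B and the separase inhibitor securin. Many mitotic genes are repressed outside G2/M by the DREAM complex at a promoter element called the cell cycle genes homology region (CHR), and their promoters often hold CCAAT boxes bound by NF-Y. In the growing retina, endothelial cells divide behind the tip cells that lead the sprouts, and ALK1, the receptor encoded by Acvrl1, carries BMP9 and BMP10 signals that restrain their growth.

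The promoters of the 3 limit genes and of Birc5 and Cenpf, which served as further markers of the phase, are shown because their transcripts define these cells. The sequences are the 250 bases before the annotated start, from RefSeq in build GRCm38.p6, written 5′ to 3′ on the strand of the gene. Ube2c lies at chr2:164769679-164769928 on the plus strand, Ccnb1 at chr13:100786487-100786736 on the minus strand, Cdc20 at chr4:118437344-118437593 on the minus strand, Birc5 at chr11:117848987-117849236 on the plus strand and Cenpf at chr1:189688087-189688336 on the minus strand. Capitals mark CHR letters (TTTGAA, or TTCAAA on the other strand, and TTTAAA, which reads the same on both) and CCAAT boxes (CCAAT, or ATTGG on the other strand). In Ube2c a CCAAT and an ATTGG overlap in a run of capitals and were counted separately.
Ube2c: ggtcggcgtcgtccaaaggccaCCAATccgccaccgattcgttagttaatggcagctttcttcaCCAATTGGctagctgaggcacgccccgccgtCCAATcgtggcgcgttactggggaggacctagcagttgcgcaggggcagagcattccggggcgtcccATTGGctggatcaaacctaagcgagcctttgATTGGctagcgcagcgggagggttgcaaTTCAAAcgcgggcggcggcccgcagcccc
Ccnb1: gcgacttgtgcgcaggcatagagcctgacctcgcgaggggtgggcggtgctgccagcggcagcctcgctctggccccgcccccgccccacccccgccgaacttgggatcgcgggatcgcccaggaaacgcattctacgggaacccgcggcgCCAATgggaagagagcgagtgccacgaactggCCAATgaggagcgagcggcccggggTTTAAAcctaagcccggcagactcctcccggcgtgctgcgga
Cdc20: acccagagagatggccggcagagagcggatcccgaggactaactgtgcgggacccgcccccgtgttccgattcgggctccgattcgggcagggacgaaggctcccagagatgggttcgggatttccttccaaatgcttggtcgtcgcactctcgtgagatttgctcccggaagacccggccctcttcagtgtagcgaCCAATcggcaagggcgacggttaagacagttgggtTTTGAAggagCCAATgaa
Birc5: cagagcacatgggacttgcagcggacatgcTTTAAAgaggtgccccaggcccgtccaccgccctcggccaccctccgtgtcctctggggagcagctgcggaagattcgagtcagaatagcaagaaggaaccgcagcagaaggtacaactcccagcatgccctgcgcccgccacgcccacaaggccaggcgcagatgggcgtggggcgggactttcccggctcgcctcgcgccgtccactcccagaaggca
Cenpf: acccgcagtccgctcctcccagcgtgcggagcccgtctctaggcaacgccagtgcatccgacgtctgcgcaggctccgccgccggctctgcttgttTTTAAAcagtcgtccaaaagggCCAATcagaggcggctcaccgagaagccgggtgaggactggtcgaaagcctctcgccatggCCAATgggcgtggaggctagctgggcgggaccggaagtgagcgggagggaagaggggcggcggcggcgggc
Each of the 5 windows held 1 CHR match, at 29 bases before the start in Ube2c, 42 in Ccnb1, 18 in Cdc20, 220 in Birc5 and 154 in Cenpf. Ube2c held 6 CCAAT boxes, Ccnb1, Cdc20 and Cenpf held 2 each, and Birc5 held none. Among all 32851 promoters of 27025 genes in the same table, 25.2% held a CHR match, 33.8% a CCAAT box and 8.78% both. Of 132 genes on the mitotic lists used below, 111 were matched, with 125 promoters, of which 38.4% held a CHR match, 60.8% a CCAAT box and 28.8% both. The 38 promoters matched to DNA replication genes held a CHR match in 21.1%, a CCAAT box in 60.5% and both in 10.5%. These matches describe letters in the windows and do not show binding.

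The chosen cells were the deepest class in the Alk1 ECKO library. They held a median of 29348.5 UMIs in the control library (1249 to 220900) and 49578 in the Alk1 ECKO library (1002 to 240101), against 10574.5 and 10082.5 in non-cycling endothelial cells, those without a Mki67 or Top2a UMI. In the control library the 5 deepest members held 41.8% of the members' 2094587 UMIs, while in the Alk1 ECKO library the 5 deepest held 8.50% of 11049305. Values over the summed control members therefore lean on few cells, and the cells were also read singly and without the 5 deepest. The libraries had 8739 and 5308 barcodes, of which 7583 and 2764 were retained and 331 and 1205 were endothelial. They shared 20 barcodes, none of them a member.

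The limits cut through a continuous range, as the plot of both limit sums shows. The lowest members stood at 407 CPM of Ube2c, Ccnb1 and Cdc20 in the control library and 405 in the Alk1 ECKO library, and the highest cycling cells just outside stood at 397 and 399. From 400 to 500 CPM there were 9 and 38 members, and 7 and 25 cycling cells lay from 300 to 400. A further 2 control and 38 Alk1 ECKO endothelial cells passed the G2/M limit but had too little Mki67 and Top2a to count as cycling.

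**Figure D1:**
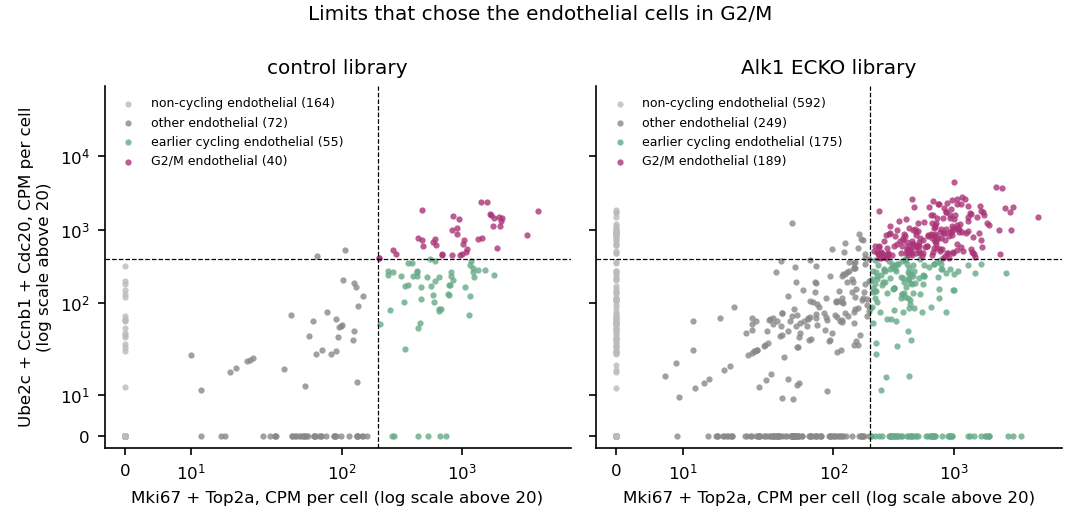
Each point is an endothelial cell, with the summed CPM of Mki67 and Top2a on the x axis and of Ube2c, Ccnb1 and Cdc20 on the y axis (both axes logarithmic above 20 CPM and linear below). Dashed lines mark 200 and 400 CPM, and the 40 and 189 cells of the upper right corner are the G2/M cells, which grade into the earlier cycling cells below them.

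Ube2c, the E2 enzyme that works with APC/C, carried most of the limit. It gave 62.4% of the UMIs of the 3 limit genes in control members and 73.2% in Alk1 ECKO members, and it had the most UMIs of the 3 in 25 of 40 and 175 of 189 cells. Cdc20, the activator of APC/C, led in 9 and 8 cells, and Ccnb1, which encodes cyclin B1, in 1 and 2. A UMI of all 5 markers was present in 32 of 40 control and 151 of 189 Alk1 ECKO members. Among members with at least 5000 UMIs the counts were 32 of 37 and 149 of 165, so most cells that lacked a marker in the Alk1 ECKO library were shallow.

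Birc5 (survivin, a subunit of the chromosomal passenger complex) and Cenpf (a kinetochore protein) were not part of the limits. Birc5 stood at 358 CPM in control members (332 to 384, 95% Poisson interval) and 371 in Alk1 ECKO members (360 to 383), against 8.90 and 9.62 in non-cycling endothelial cells. Cenpf stood at 347 and 355 CPM in members against 2.32 and 3.65. Cell by cell, the median member held 427 CPM of Birc5 in the control library (0 to 1284) and 380 in the Alk1 ECKO library (0 to 1855), while the median non-cycling cell held 0. With every cell thinned to 5000 UMIs, Birc5 was detected in 86.5% of 37 control members (exact binomial interval 71.2 to 95.5%) and 82.4% of 165 Alk1 ECKO members (75.7 to 87.9%), and without thinning in 100% and 98.2% of them. Thinned rods, which should lack it, gave 0.943% and 1.28% (2.31% and 1.28% unthinned, with median depths of 9463 and 8072 UMIs). Earlier cycling endothelial cells pass the cycling limit but not the G2/M limit. Thinned, Birc5 was detected in 60.4% (46.0 to 73.5%) and 55.4% (46.1 to 64.4%) of them. Thinned Cenpf was detected in 39.6% and 38.8% of them, against 83.8% and 76.4% of members. Both markers were found more often in members, though the control intervals of Birc5 overlapped. Earlier cycling cells held them too, so the rise over non-cycling cells and rods does not by itself check the label. Transcripts alone do not separate G2 from mitosis.

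G2/M cells made up 12.1% of endothelial cells in the control library (40 of 331, exact binomial interval 8.78 to 16.1%) and 15.7% in the Alk1 ECKO library (189 of 1205, 13.7 to 17.9%), and these intervals overlapped. Cycling cells as a whole were 28.7% (23.9 to 33.9%) and 30.2% (27.6 to 32.9%). Of the cycling cells, 42.1% (32.0 to 52.7%) and 51.9% (46.7 to 57.2%) were in G2/M. Depth moved with these shares from 5000 UMIs on: from 50000 UMIs up, the G2/M share was 20.5% in the control library (12 to 31.6%) and 31.6% in the Alk1 ECKO library (26.4 to 37.3%), against 7.01% and 8.81% from 5000 to 20000 UMIs. Under 5000 UMIs it was 14.3% (3 of 21, 3.05 to 36.3%) and 9.30% (24 of 258). Thinned to 5000 UMIs, the shares were 14.4% (10.7 to 18.7%) and 18.9% (16.4 to 21.5%). The order of the libraries turned when barcodes under 1% mitochondrial UMIs were let in, at 12.2% and 9.30%. The dissociation and the bead enrichment can also set such shares, and their part was not tested.

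The comparison with non-cycling endothelial cells of the same library describes what the limits selected, and nothing is read from its size. Ratios are on the log2 scale of CPM over summed cells, centred by subtracting the median of all measured genes (those with at least 30 UMIs over both classes), which was -0.09 in the control and -0.14 in the Alk1 ECKO library. A gene counted as higher or lower past 1.5-fold. Pairs of values give the control library before the Alk1 ECKO library. In the control library 18.5% of measured genes were higher and 19.8% lower, and in the Alk1 ECKO library 13.1% and 11%. In both libraries 946 genes were higher and 604 lower of 9339 measured in both, and 722 and 956 without centring. The mitotic lists, without that of the G2/M transcription factors, held 127 genes that the limits did not use. Of these, 123 were measured in both libraries, and 106 of them were higher and none lower in both. The counts by list below also include the limit genes, Ccnb1 with the cyclins, Cdc20 and Ube2c with APC/C, and Mki67 and Top2a with mitotic chromatin.

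Among kinases and cyclins of mitotic entry, 19 of 19 measured genes were higher in the control and 18 of 19 in the Alk1 ECKO library (median log2 ratios 4.50 and 4.22). Plk1, the polo-like kinase needed to enter and leave mitosis, stood at 121 CPM in control members (107 to 137) and 101 in Alk1 ECKO members (95.3 to 107), against 1.16 and 1.22 in non-cycling cells. The median member held 109 CPM (0 to 506) and 94.5 CPM (0 to 837), and Plk1 was found in 35 of 40 and 161 of 189 members but in 3 of 164 and 10 of 592 non-cycling cells. The smaller of its 2 ratios, 6.52, was 3.40 once barcodes under 1% mitochondrial UMIs were let in, and 4.78 over the mean of single cells. Cdk1, the kinase partner of cyclin B, was higher by 4.30 and 3.57 with members at 317 and 344 CPM. Cdc25a, a phosphatase that acts from S phase on, was the member that did not pass in the Alk1 ECKO library, at 1.35 and 0.40.

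All 4 genes of the chromosomal passenger complex, which corrects faulty attachments, were higher in both libraries (medians 5.40 and 5.41). Kinetochore and checkpoint genes were higher in 30 of 30 and 30 of 31. They include Knl1, the scaffold that recruits the checkpoint, at 7.01 and 6.79, and Bub1, a checkpoint kinase, at 6.72 and 6.20. Among kinesins and spindle assembly genes 22 of 23 and 23 of 24 were higher. Kif11, the motor that pushes spindle poles apart, stood at 124 and 86.0 CPM in members and at 0.387 and 0.608 in non-cycling cells, where it rested on 1 and 6 UMIs. Cytokinesis genes were higher in 12 of 13 and 14 of 15, among them Prc1, which bundles midzone microtubules, with members at 355 and 276 CPM. Rhoa, the GTPase of the contractile ring that every cell uses, was the exception at 0.13 and 0.07. All 18 condensin and mitotic chromatin genes were higher in each library. Of the transcription factors of G2/M, 8 of 11 and 8 of 12 were higher, with Foxm1, a forkhead activator of mitotic genes, at 3.51 and 4.08 and members at 29.1 and 26.5 CPM.

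APC/C was the mitotic list that differed least between G2/M and non-cycling cells. Only 8 of its 21 genes were higher in each library, with medians of 0.39 and 0.45. The 8 were the coactivators Cdc20 and Fzr1, the E2 enzymes Ube2c and Ube2s, the inhibitor Fbxo5 (3.52 and 4.23), the separase gene Espl1 (4.48 and 4.52) and 2 core subunits, Anapc5 (0.88 and 0.60) and Anapc15 (1.31 and 1.32). Other core subunits such as Anapc1 (0.39 and 0.47), Anapc4 (0.38 and -0.02) and Cdc27 (0.36 and 0.45) did not pass the fold in either library. Pttg1, the securin gene, also stayed below it at 0.27 and 0.37, with members at 39.1 and 43.6 CPM.

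**Figure D2:**
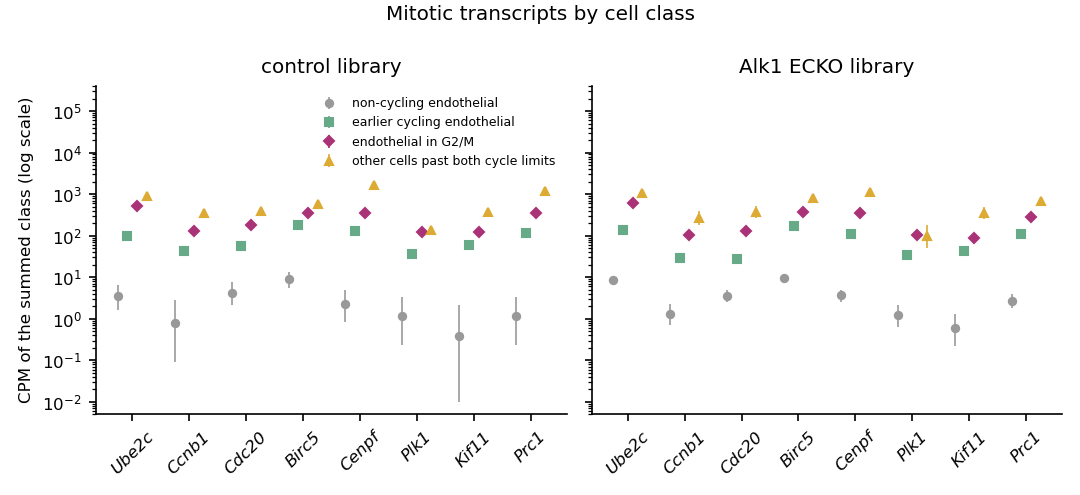
CPM of 8 mitotic genes in each summed cell class (logarithmic axis, 95% Poisson bars that cover counting error only, the lowest cut by the axis where they reach it). In both libraries G2/M endothelial cells lie above earlier cycling endothelial cells for each gene, and Ube2c, Ccnb1 and Cdc20 do so because they set the limit.

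Earlier cycling endothelial cells, which pass the cycling limit but not the G2/M limit (55 and 175 cells), give the closer comparison, although the G2/M limit separates the classes here too. Relative to them 4.63% of measured genes were higher and 8.18% lower in control members, and 3.74% and 3.31% in Alk1 ECKO members. Of the mitotic genes outside the limits, 76 of 126 were higher in the control and 84 of 127 in the Alk1 ECKO library, none lower. The order differed by role: cytokinesis genes had medians of 1.12 and 1.31, kinesins 0.99 and 1.26, mitotic entry genes 0.88 and 1.0 and kinetochore genes 0.69 and 0.74. Aurka, the kinase of the spindle poles, was higher by 2.14 and 1.99.

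Most DNA replication genes were higher than in non-cycling cells but did not pass the fold against earlier cycling cells. Against non-cycling cells 38 of 39 and 42 of 42 were higher (medians 2.92 and 2.40). Against earlier cycling cells 0 and 1 were higher and 4 of 41 and 6 of 42 lower (medians -0.13 and -0.29). Of all measured genes 8.18% and 3.31% were lower there, so the control count was near that share. Ccne2, a cyclin of the G1/S step, stood at -1.04 and -0.82 against earlier cycling cells. Members thus still held replication transcripts: the summed 42 genes reached a median of 1967 CPM per control member (0 to 4953) and 1632 per Alk1 ECKO member (0 to 8324). Linker histone Hist1h1b, made in S phase, stood at 1085 CPM in members of the control library and 639 CPM in those of the Alk1 ECKO library, and at -0.14 and -0.20 against earlier cycling cells. Replication histone transcripts mostly lack the poly(A) tail that this 3′ chemistry primes on, and near-identical copies may share reads, so their levels are uncertain.

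Retained cells of other kinds that passed both cycle limits, 56 in the control and 11 in the Alk1 ECKO library, had an endothelial sum under 500 CPM. Between these and the members 31.3% of measured genes were higher and 29% lower in control members, and 31.1% and 32.7% in Alk1 ECKO members. Of the mitotic genes outside the limits, 94 of 126 and 69 of 127 were lower in the endothelial cells and 3 and 11 higher. Cenpf was lower by ratios of -2.08 and -1.23 and Mki67 by -1.24 and -1.55, while the intervals of Plk1 spanned 0, at 0.02 (-0.39 to 0.46) and 0.47 (-0.38 to 1.47). Total UMIs differed too, with medians of 7563 and 7841 in those cells, and the part of depth or of total RNA per cell was not tested.

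Barrier, arterial and ALK1-SMAD1/5 target genes were mostly lower in the members than in non-cycling cells, while most venous and junction genes did not pass the fold. Of the capillary transport and barrier genes, 22 of 23 were lower in the control and 15 of 25 in the Alk1 ECKO library (medians -1.21 and -0.80), none higher. Spock2, a secreted proteoglycan, stood at 85.9 CPM in control members and 972 CPM in control non-cycling cells, and at 60.2 and 271 CPM in the Alk1 ECKO library. Slco1a4, an organic anion transporter of barrier vessels, stood at 2.39 CPM in control members, from 5 UMIs, against 77.4 CPM, and at 3.89 against 34.6 CPM in the Alk1 ECKO library. Its ratio nearer to 0, -3.02, was -0.70 over the mean of single cells. Arterial genes were lower in 14 of 17 and 14 of 18, and ALK1-SMAD1/5 target genes in 9 of 13 and 10 of 15. Venous genes were lower in 3 of 13 and 4 of 14 and junction genes in 3 of 18 in each library, against 19.8% and 11% of all measured genes. The junction list overlaps with the genes of the endothelial limit, so its levels were partly set by the choice of cells. Id1, a direct target that encodes an inhibitor of differentiation factors, was at -0.69 and -0.57.

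Among the 30 genes furthest apart in both libraries, the lower ones included Six3, Htra1, Stmn2 and Ptn, which retinal neurons or glia also express. Six3, a retinal transcription factor, stood at 3.82 and 2.35 CPM in members, 71.2 and 26.5 CPM in non-cycling endothelial cells and 283 and 92.7 CPM in retained cells outside the endothelial limit. Ptn, a secreted growth factor, was also more abundant outside (339 and 396 CPM) than in non-cycling endothelial cells (291 and 119 CPM). Stmn2 (51.6 and 36.0 against 130 and 62.9 CPM) and Htra1 (193 and 77.4 against 232 and 82.0 CPM) were less abundant outside. Summed Müller glia and progenitor markers gave 194 and 96 CPM in members (0 to 2126 and 0 to 2119 CPM per member) against 808 and 228 in non-cycling cells, and rod and cone markers 110 and 96 against 326 and 114. These markers moved with phase, and their part in the lower genes was not tested. Over the mean of single cells the ratio of Six3 nearer to 0 was -0.66 in place of -3.36.

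Tip cell genes did not follow phase in the same way in both libraries. In the control library 12 of 25 were higher and 2 lower in G2/M than in non-cycling cells (median 0.57), and in the Alk1 ECKO library 1 of 27 was higher and 4 lower (median -0.04). Kcne3, a potassium channel subunit of tip cells, stood at 103 CPM in control members and 12 CPM in control non-cycling cells, but at 130 and 138 CPM in the Alk1 ECKO library. Angpt2, which antagonises the TIE2 receptor, stood at 40.6 and 7.74 CPM in the control library and at 80.1 and 90.7 CPM in the Alk1 ECKO library. Between the libraries, non-cycling cells held 3.71 more Angpt2 on the log2 scale in the Alk1 ECKO library, while the members held 1.14 more. That the 2 contrasts differ was not tested, since no library was repeated.

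**Figure D3:**
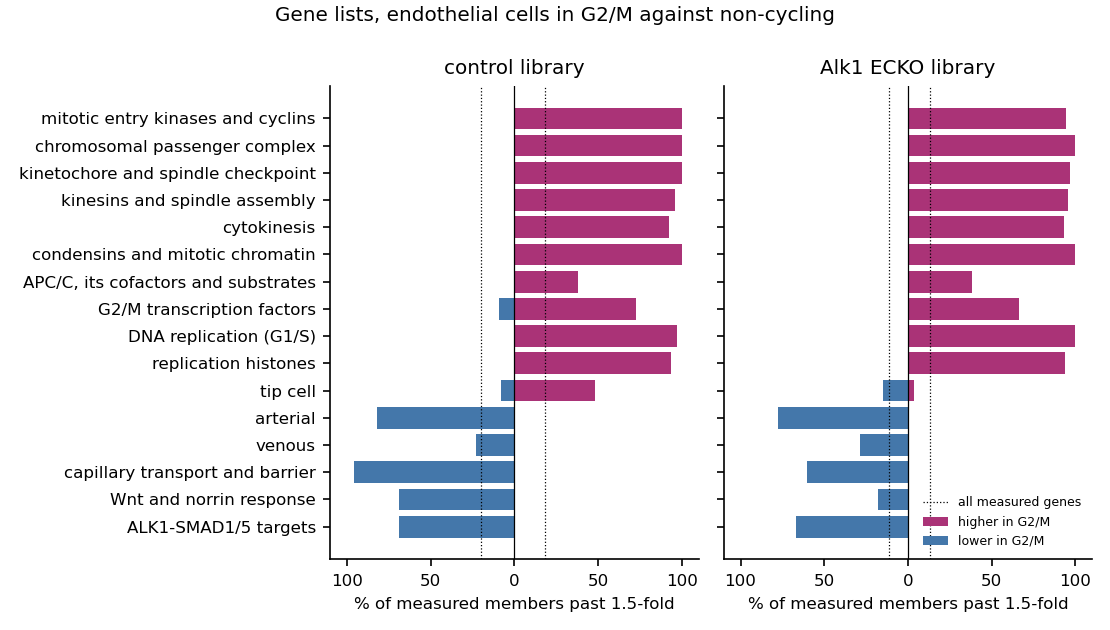
Share of each list's measured genes past 1.5-fold higher (right) or lower (left) in G2/M than in non-cycling endothelial cells, by library. Dotted lines mark the share of all measured genes, and in both libraries the mitotic lists lie to the right and the arterial and barrier lists to the left, while the tip cell list has 12 of 25 genes higher in the control and 1 of 27 in the Alk1 ECKO library.

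Between the libraries, the targeted gene is given before the others. Acvrl1 (chr15:101128522-101145336 in mm10, plus strand) stood at 90.2 CPM in control members (77.8 to 104) and 103 CPM in Alk1 ECKO members (96.9 to 109), a centred log2 ratio of 0.35 (0.13 to 0.58). It was found in 34 of 40 and 164 of 189 members, with medians per cell of 81.2 and 95.9 CPM, with the cells of both libraries spread from 0 upward. The labels do not name the deleted exons, and reads from the 3′ end of a transcript do not show whether exons elsewhere are missing, so these values check neither the deletion nor the labels. Piezo1 (chr8:122481698-122551329, minus strand), the mechanically gated channel in the title of the study, stood at 56.3 CPM (46.6 to 67.5) and 45.3 CPM (41.5 to 49.5), a ratio of -0.15 (-0.44 to 0.15). Its interval spans 0, and it was found in 29 of 40 and 131 of 189 members.

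Within G2/M the libraries differed in 1188 genes higher and 1068 lower of 10581 measured in the Alk1 ECKO members, which is 11.2% and 10.1%. From here on, a single signed value after a pair of levels is the centred log2 ratio of Alk1 ECKO over control. Its median before centring was -0.16, and without centring the counts were 775 and 1866. Of the 127 mitotic genes outside the limits, none was higher and 13 were lower past the fold, the latter close to the share of all genes, with a median of -0.14. Per cell, these genes summed to a median of 23047 CPM in control members (12417 to 32682) and 17903 CPM in Alk1 ECKO members (5332 to 50944), and the ranges overlapped. The 13 included 4 of 15 cytokinesis genes, such as Kif20a, a motor of the midzone, at 61.6 and 29.8 CPM (-0.89), and 3 of 31 kinetochore genes, such as Ttk, the MPS1 checkpoint kinase, at 42.5 and 23.4 CPM (-0.70). None of the 4 passenger complex genes and none of the 21 APC/C genes passed the fold. Mki67, which set a limit, was at 503 and 266 CPM (-0.76).

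DNA replication genes were lower in 7 of 42 and higher in none (median -0.22, but 0.02 without the 5 deepest members and 0.01 over the mean of single cells). Of all measured genes 10.1% were lower and 11.2% higher. Cdt1, which licenses replication origins, stood at 25.3 and 10.3 CPM (-1.13), and Dtl, part of the ligase that destroys it, at -0.98. Replication histones were lower in 8 of 16 (median -0.58), among them Hist1h1d at 87.4 and 30.4 CPM (-1.36), while Hist1h2ap stood the other way at 473 and 573 CPM (0.44). In non-cycling cells 8 of 13 histones were lower as well, where 11.7% of all measured genes were higher and 14.3% lower.

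Inhibitors of cyclin-dependent kinases and p53 targets were higher in 10 of 23 and lower in 1 (median 0.46). Of all measured genes 11.2% were higher and 10.1% lower. Cdkn1a, which encodes the inhibitor p21, was found in 26 of 40 control and 155 of 189 Alk1 ECKO members. The median member held 35.4 CPM (0 to 266) in the control and 105 CPM (0 to 596) in the Alk1 ECKO library, so the ranges overlapped while the medians lay apart. Summed, Cdkn1a gave 65.4 CPM (54.9 to 77.3) and 139 CPM (132 to 146), a ratio of 1.25 (0.99 to 1.51), and 2.01 without the 5 deepest members of each library. Thinned to 5000 UMIs it was detected in 16.2% of control members (6.19 to 32.0%) and 44.8% of Alk1 ECKO members (37.1 to 52.8%), and in 6.08% and 10.3% of rods. Unthinned, the shares in members were 67.6% and 91.5%, and in rods 12.3% and 17.9%.

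The same gene stood 1.67 higher in non-cycling cells of the Alk1 ECKO library, so the difference was not confined to G2/M. Phlda3, a p53 target that restrains AKT, stood at 15.8 and 52.1 CPM (1.89, and 2.67 over the mean of single cells), and Bax, a p53 target of cell death, at 213 and 344 CPM (0.85). Phlda3 also stood higher in retained cells outside the endothelial limit, at 3.82 and 27.1 CPM. Gadd45b, a stress-induced gene, was at 1.32 in members and -0.07 in non-cycling cells. Cdkn1c, which encodes p57, went the other way at 51.6 and 20.8 CPM (-1.15), at -0.46 without cells rich in other cells' markers, and at 1.01 with a G2/M limit of 800 CPM. Cdkn1b, which encodes p27, stood at 98.8 and 73.2 CPM (-0.27), and at -0.98 over the mean of single cells.

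Tip cell genes were higher in 9 of 27 and lower in none (median 0.37), against 20 of 27 in non-cycling cells (median 1.06). Of all measured genes 11.2% were higher in members and 11.7% in non-cycling cells. In earlier cycling cells 16 of 26 were higher (median 0.90). With a G2/M limit of 800 CPM the median in members was 0.87, so its distance from the other classes depended on that limit. Adm, the peptide adrenomedullin, stood at 48.7 and 123 CPM (1.5), and Trp53i11 at 124 and 287 CPM (1.37). Apln, the ligand of the apelin receptor, had a median of 74.0 CPM per control member (0 to 928) and 361 CPM per Alk1 ECKO member (0 to 1969). It was found in 27 of 40 and 165 of 189 members, and its summed ratio was 0.86 in members and 3.31 in non-cycling cells. Igfbp3, which binds insulin-like growth factors, stood at 413 and 408 CPM in members (0.14) and at a ratio of 2.62 in non-cycling cells.

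Capillary transport and barrier genes were lower in 9 of 25 and higher in 5 (median -0.39). Of all measured genes 10.1% were lower and 11.2% higher. More of the list was lower in earlier cycling cells (13 of 25, median -0.65) and in non-cycling cells (13 of 25, median -0.79). In each of those classes 2 were higher. Slco1c1, a thyroxine transporter of barrier vessels, was found in 22 of 40 control and 44 of 189 Alk1 ECKO members. It stood at 59.2 CPM (49.2 to 70.6) and 10.3 CPM (8.51 to 12.4), a ratio of -2.36 (-2.74 to -1.98). Its ratio was -2.67 in earlier cycling cells and -2.52 in non-cycling cells. Mfsd2a, the lipid transporter that limits transcytosis, stood at 124 and 52.2 CPM (-1.09), with 34 of 40 and 113 of 189 members positive. Tfrc, the transferrin receptor, was at -0.89 and Slc7a1, a transporter of cationic amino acids, at -0.85. Car4, Slc1a1, Slco1a4, Foxq1 and Itm2a were the 5 on the other side, with Itm2a at 255 and 364 CPM (0.68) and the others at 1.94, 0.98, 0.87 and 0.69. Car4, a carbonic anhydrase, rested on 3.82 and 13.1 CPM.

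Among direct targets of ALK1 and SMAD1/5, 4 of 13 were lower and 1 higher, against 10.1% and 11.2% of all measured genes. Their median was -0.34, which turned to 0.30 when the mean of the CPM of single cells was used. In earlier cycling cells the list went the other way, with 6 of 13 higher and 2 lower (median 0.50). In non-cycling cells 1 of 15 was higher and 4 lower (median -0.16). Id3 was found in 39 of 40 and 163 of 189 members and stood at 575 CPM (543 to 609) and 304 CPM (294 to 315), a ratio of -0.76. Its median per member was 581 CPM (0 to 2036) and 209 CPM (0 to 2043), lower in the Alk1 ECKO library over much the same range. Id1 stood at 241 and 187 CPM (-0.21) and turned sign under some settings, from -0.68 to 0.15. Among the receptors and transducers of the pathway 2 of 14 were higher and none lower, near the 11.2% of all measured genes that were higher. They were Smad1, a transducer of BMP signals, at 128 and 227 CPM (0.98), and Tgfbr3, a coreceptor, at 1.43 and 4.53 CPM. Arterial genes were lower in 4 of 16 and higher in 3 (median -0.34), beside the same shares of all genes. That median turned to 0.44 over the mean of single cells and to 0.46 with a limit of 800 CPM. In earlier cycling cells 9 of 17 were higher and none lower (median 0.92). In non-cycling cells 1 of 18 was higher and 8 lower (median -0.44).

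Genes of the flow response went both ways, and most genes induced by dissociation were higher. Klf2, a transcription factor induced by laminar flow, stood at 150 CPM (134 to 168) and 454 CPM (441 to 466) in members, a ratio of 1.75. Its ratio was 1.70 in earlier cycling cells and 0.86 in non-cycling cells. Klf4 stood at 52.0 and 107 CPM (1.21), while Tek, which encodes TIE2, was at 127 and 50.7 CPM (-1.17). Of 19 flow genes 4 were higher and 2 lower, against 11.2% and 10.1% of all genes (median -0.08, which turned to 0.29 with a limit of 800 CPM). Early response and heat shock genes that tissue dissociation induces were higher in 8 of 13 and lower in 3 (median 1.04), including Fos at 97.9 and 277 CPM (1.66) and Jun at 238 and 536 CPM (1.33). Klf2 and Cdkn1a can belong to that response as well, and its part in their difference was not tested. Hspa1b and Hspa1a, inducible heat shock chaperones, stood at 27.7 and 0.272 CPM and at 43.9 and 1.72 CPM. A single control cell held 65.5% and 68.5% of their UMIs, and Hspa1a was at -3.40 without the 5 deepest members. Hspa1b and Hspa1a also stood lower in earlier cycling cells (-4.35 and -4.55) and in non-cycling cells (-3.61 and -4.06).

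**Figure D4:**
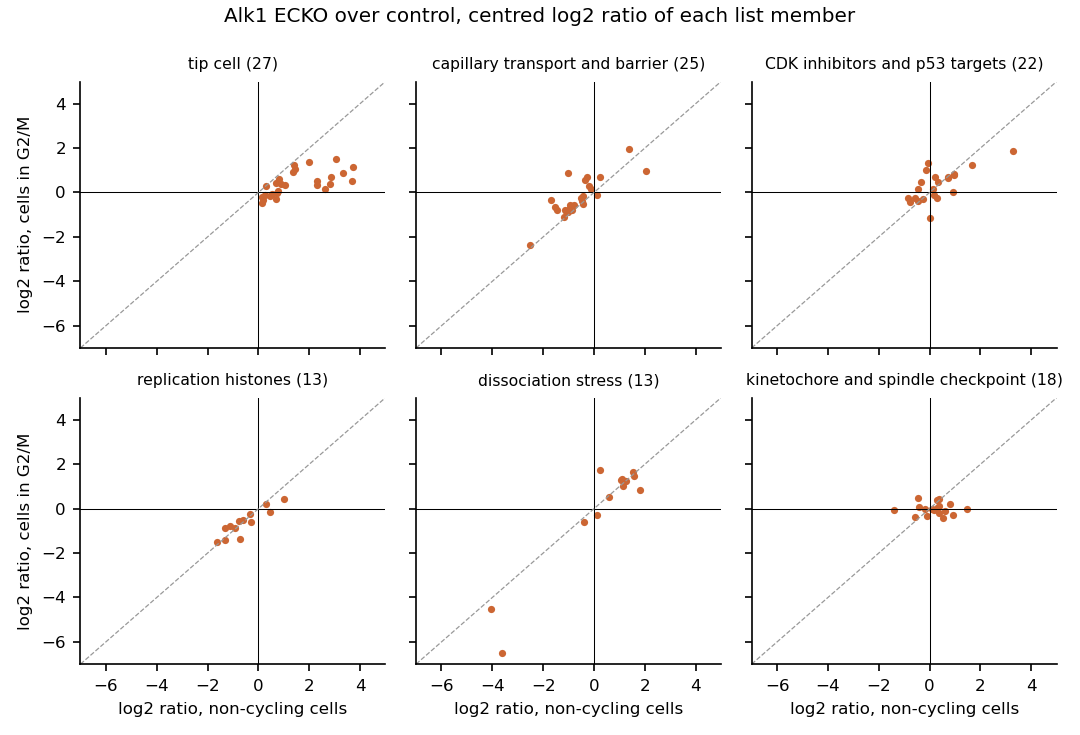
Each point is a gene of the list named above the panel, with its centred log2 ratio of Alk1 ECKO over control in non-cycling endothelial cells (x) and in G2/M endothelial cells (y). Most points of the tip cell list lie below the dashed line of equal ratios on the right, where the ratio was smaller in G2/M, while kinetochore genes stay between -1 and 1 on the y axis.

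The genes furthest apart between the libraries were named by a fixed rule from 205 that passed its limits on level and interval. Apod, a lipocalin, stood at 6.21 CPM (3.3 to 10.6) and 81.6 CPM (76.4 to 87.1), a ratio of 3.88 (3.10 to 4.79). It was found in 9 of 40 and 117 of 189 members, its median member held 0 and 21.7 CPM, and over the mean of single cells its ratio was 2.81. Myl9, a myosin light chain of contractile cells, stood at 6.21 and 67.4 CPM (3.60), at 5.43 without the 5 deepest members. Rasgrp2, an activator of the GTPase RAP1, stood at 22.4 and 125 CPM (2.64), at 3.69 without the 5 deepest members and at 4.13 with a limit of 800 CPM, and a single control cell held 40.4% of its UMIs. Socs3, a brake on cytokine signals, was at 2.07 and Spry1, a brake on growth factor signals, at 1.87. These genes also stood higher in the Alk1 ECKO library among retained cells outside the endothelial limit. There Apod was at 1.49 and 77.4 CPM, Myl9 at 5.23 and 163 CPM and Rasgrp2 at 3.87 and 124 CPM. Socs3 was at 17.7 and 69.2 CPM and Spry1 at 8.21 and 53.3 CPM. The cells outside that limit include endothelial cells at or over the mural limit, 4 in the control and 113 in the Alk1 ECKO library. These levels therefore do not show a difference within other kinds of cells, and the cause was not tested.

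Isg15 and Mfap2 were named in G2/M with a smaller or opposite ratio in non-cycling cells. Isg15, an interferon-induced ubiquitin-like protein, stood at 7.16 and 25.3 CPM (1.98, 1.24 to 2.84) in members, at 1.73 (1.20 to 2.31) in earlier cycling cells and at 0.40 in non-cycling cells. Among retained cells outside the endothelial limit Isg15 was at 0.648 and 17.3 CPM. Bst2, an interferon-induced membrane protein, stood at 190 and 319 CPM (0.91) in members. The list of MHC class II and interferon genes, which includes Isg15, was mostly higher in each class, over unlike numbers of measured genes. It was higher in 8 of 9 in members (median 1.20), against 11.2% of all measured genes. In earlier cycling cells 10 of 11 were higher (median 1.73, the ratio of Isg15 itself) and in non-cycling cells 10 of 13 (median 1.67). Mfap2, a microfibril protein, stood at 7.64 and 23.5 CPM (1.78, with 1.06 without the 5 deepest members and 2.84 without cells rich in other cells' markers) against 0.36 in earlier cycling and -0.53 in non-cycling cells, with 7 of 40 and 76 of 189 members positive. These differences between contrasts were not tested.

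On the lower side, Npr3, the clearance receptor of natriuretic peptides, stood at 35.3 and 9.14 CPM (-1.79). Cxcl12, an arterial chemokine, stood at 64.0 and 18.5 CPM (-1.63), but a single control cell held 51.5% of its UMIs, and the ratio was 3.5 with a limit of 800 CPM. Eif3j2 (-2.58) and Lars2 (-1.48) also stood lower among cells outside the endothelial limit. There Eif3j2 was at 48.3 and 11 CPM and Lars2 at 221 and 58.4 CPM. Those cells were not split by kind, so a difference in their makeup cannot be told apart from this.

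**Figure D5:**
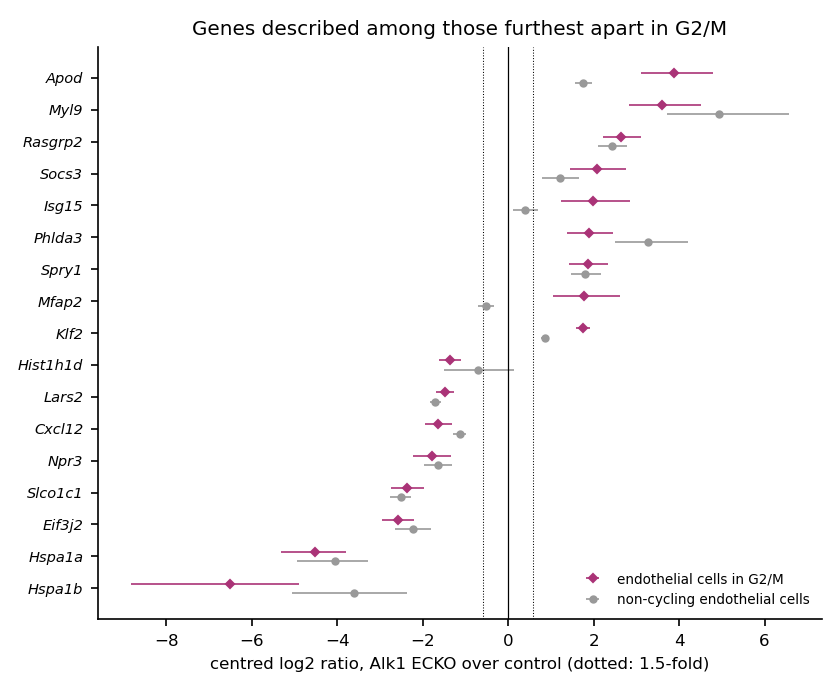
Centred log2 ratio of Alk1 ECKO over control for genes described here among those furthest apart in G2/M endothelial cells (diamonds) and the same genes in non-cycling endothelial cells (circles), with 95% intervals for counting error. Most genes lie on the same side in both classes, while Mfap2 lies on opposite sides and the non-cycling ratio of Isg15 is below 1.5-fold.

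Transcripts of other cells were counted in the members. A UMI of Rgs5, Kcnj8, Pdgfrb or Higd1b was present in 0 of 40 control and 39 of 189 Alk1 ECKO members, 20 of them at 200 CPM or more, with a highest value of 992 CPM just under the limit. All 12 mural markers were more abundant in Alk1 ECKO members past the fold, with Rgs5, a pericyte gene, at 0 and 60.0 CPM. Control members held none of 8 of the 12, namely the 4 limit genes, Notch3, Cspg4, Vtn and Acta2, so the ratios of those are lower bounds. Without those 20 cells 1049 genes were higher and 981 lower, and Myl9, itself abundant in mural cells, stood at 3.15. Endothelial cells at or over the mural limit, which are not members, numbered 4 and 113, of which 1 and 13 passed both cycle limits. Erythroid markers gave 1 UMI in control members and 747 CPM in Alk1 ECKO members, with 4 cells at 1000 CPM or more, and microglial markers reached 1000 CPM in 6 Alk1 ECKO members. With all such cells left out, 1206 genes were higher and 1062 lower. No doublet caller was run, and the part of doublets in these values was not tested.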

How the data were processed

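Single-cell 3′ libraries (10x Chromium Next GEM v3.1, sequenced on a HiSeq4000 per the labels) were deposited by the authors as matrices of counts, whole UMIs per gene and barcode, without further normalization. Cell Ranger 5.0.1 made them per the file headers. The submitters' processing notes list mm10, FastQC 0.11.9 and, in disagreement, Cell Ranger 6.1.1. Whether intronic reads were counted and how barcodes were filtered is not given in the sources used here. Libraries were grouped by genotype label.

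From these counts, UMIs were summed over each class of cells and divided by the class total (CPM). Intervals at 95% are exact Poisson for CPM, Clopper-Pearson for shares and conditional binomial for ratios, and cover counting error only. A gene at 0 in a class was set to 3 counts for its ratio, a lower bound. UMIs totalled 54800465 and 62728605. Python 3.11.15, numpy 2.4.6, scipy 1.17.1, pandas 2.3.3 and matplotlib 3.10.9 were used, and the code was tested on simulated data.

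Genes named between libraries were the 12 highest and 12 lowest ratios with at least 20 CPM in 1 library, 50 UMIs and an interval beyond 1.5-fold. Between phases they were the 15 highest and 15 lowest. Both left out other cells' markers and genes that are ribosomal, mitochondrial, predicted, sex-linked or of haemoglobin, and genes over 5 times as abundant outside the endothelial limit. 1 named gene is not reported here. In each list the 3 highest and lowest and those against its direction could be named. The members and lists were chosen with earlier results of these data known. Alternatives varied the limits, depth, scaling, gene filter and fold, and left out cells rich in other markers.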

Additional observations from a re-analysis of the deposited data

Results flagged for a closer look

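Barcodes under 1% mitochondrial UMIs were left out of the comparisons, and many of them passed the rest of the rule. In the Alk1 ECKO library 40 such barcodes passed every other limit for endothelial cells in G2/M, against 1 in the control library. They were 3.18% (2.28 to 4.31%) of the 1257 barcodes that passed the endothelial limits at that mitochondrial level, of which the control library had 5. The 40 had a median of 2233.5 UMIs and of 1498 CPM of erythroid markers. Whether they are intact cells was not tested.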

How the results depend on the processing

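No paired analysis was possible because the labels give no replicate numbers and each genotype has 1 library. Genes higher between libraries (1188) numbered 775 without centring, 703 with at least 100 UMIs and 439 with a fold of 2, and genes lower (1068) numbered 1866, 623 and 233, and 1630 over the mean of single cells. Genes higher in G2/M in both libraries (946) numbered 553 with at least 100 UMIs and 454 with a fold of 2, and genes lower (604) 315 and 198, and 956 without centring. Without centring, 3 lists had a median of at least 0.25 in place of 5, and 11 a median of -0.25 or less in place of 6. With a limit of 200 CPM the G2/M share was 19.9% in the control and 20.7% in the Alk1 ECKO library, and with 800 CPM 5.44% and 8.13%. The Alk1 ECKO share was 9.30% without the lower mitochondrial limit and 18.9% after thinning. The sign turned for arterial genes (0.46 with 800 CPM, 0.44 over the mean of single cells), ALK1-SMAD1/5 targets (0.30 over that mean), Cxcl12 (3.5 with 800 CPM) and Cdkn1c (1.01 with 800 CPM). The cause was not tested. Of 621 values of 63 named genes under alternatives, 445 stayed within the spread allowed, 174 moved and 2 reversed. Leaving out the 5 deepest members, the members with mural transcripts or cells under 5000 UMIs, and the wider non-cycling class, were chosen after seeing the data. Depth limits the control values, since 40 cells hold them and 5 of these hold 41.8% of the UMIs.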

Other observations

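Glycolysis and hypoxia genes were not described above. Between libraries 5 of 22 were higher and 2 lower in G2/M endothelial cells (median 0.14). Of all measured genes 11.2% were higher and 10.1% lower there. In non-cycling cells 7 of 23 genes of the list were higher and 4 lower (median 0.31). In earlier cycling cells 3 of 21 were higher and 2 lower (median 0.31). The levels that follow are those of the G2/M cells. Egln3, an oxygen-sensing hydroxylase induced by hypoxia, stood at 9.07 and 21.5 CPM (1.41), and Ankrd37, another induced gene, at 53.9 and 118 CPM (1.29), while Pfkfb3, an activator of glycolysis, stood at 20.5 and 10.2 CPM (-0.84). The glycolytic enzymes Ldha (602 and 625 CPM, 0.22) and Pgk1 (256 and 240 CPM, 0.06) did not pass the fold. None of the 18 endothelial junction genes passed the fold in either direction (median -0.09). That list overlaps with the genes of the endothelial limit, which every compared cell had to reach. Its small differences are therefore partly set by how the cells were chosen.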
